A study of Mus musculus with 6 samples.

Results

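Genes that mark the osteoblast lineage were followed in MC3T3-E1 cells, a preosteoblast line from mouse calvaria, after treatment with sulfasalazine. The 10 genes were taken by symbol from the deposited table of 14003 genes, and all 10 had a row: Runx2, Sp7, Bglap, Bglap2, Col1a1, Dlx3, Pth1r, Phex, Ifitm5 and Sost. RNA was sequenced from 3 sulfasalazine samples (200 µM for 24 h) and from 3 control samples left untreated, all labelled wild type. The labels name no vehicle for the controls, so an effect of a solvent and of the drug cannot be told apart. They also name no subclone of the line and no osteogenic supplement to the growth medium. Sulfasalazine is an anti-inflammatory drug, and the series title places it in TNFα and NF-kB signalling and in the healing of fractures.

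Osteoblasts arise from mesenchymal progenitors in an order set by transcription factors. RUNX2 commits cells to the lineage, SP7 (osterix) acts downstream of it, and DLX3 is a homeodomain factor of bone and skin. Committed cells secrete type I collagen, the main protein of bone matrix, and later osteocalcin, a calcium-binding protein of mineralising matrix. PTH1R receives parathyroid hormone, IFITM5 is a membrane protein of mineralising osteoblasts, and osteoblasts buried in matrix become osteocytes, which make the endopeptidase PHEX and the Wnt antagonist sclerostin (the product of Sost).

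The libraries held 19247900 to 21579133 reads on the genes of the table in sulfasalazine samples and 15980935 to 20828706 in control samples. A read here is 1 counted fragment, recovered from the deposited FPKM (fragments scaled by gene length and library size). Control replicate 3, the shallowest library, stood apart from its group on the first principal component (88.6% of the variance). The scores were 57.7, 59.2 and 54.1 in sulfasalazine replicates 1, 2 and 3, and -65.3, -63.2 and -42.6 in control replicates 1, 2 and 3. The labels do not tell whether the replicates are separate cultures, and the spread behind each p-value may be technical only. In bulk RNA, fewer cells expressing a gene and less RNA per cell cannot be told apart.

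The mouse carries neighbouring osteocalcin genes whose reads are partly hard to separate, and their coding sequences are shown for that reason. Bglap lies on chromosome 3 from 88383501 to 88384464 and Bglap2 from 88377736 to 88378699, both on the minus strand (GRCm38). The sequences, without the stop codon, are from the GENCODE M21 transcripts, 5′ to 3′, with capitals at the bases that differ.
Bglap: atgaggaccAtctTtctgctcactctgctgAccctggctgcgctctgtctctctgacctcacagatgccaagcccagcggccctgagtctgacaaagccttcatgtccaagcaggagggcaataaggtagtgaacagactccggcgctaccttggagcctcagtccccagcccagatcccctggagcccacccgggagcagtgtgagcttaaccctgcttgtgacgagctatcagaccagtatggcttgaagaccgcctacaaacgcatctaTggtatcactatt
Bglap2: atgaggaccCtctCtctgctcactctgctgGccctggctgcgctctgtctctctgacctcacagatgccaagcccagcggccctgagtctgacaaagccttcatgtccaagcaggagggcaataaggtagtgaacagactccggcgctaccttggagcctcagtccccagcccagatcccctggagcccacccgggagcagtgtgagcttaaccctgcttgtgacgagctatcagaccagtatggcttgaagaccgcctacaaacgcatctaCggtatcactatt
Only 4 of the 285 coding bases differ (98.6% identical), and the longest identical run is 241 bases, longer than the 150-base reads. Of the 50-base words in Bglap transcripts 56.6% occur in other genes, mainly Bglap2, and of those in Bglap2 transcripts 88.2% occur in other genes, mainly Bglap. At the read length of 150 bases the shares are 19.6% for Bglap and 28.6% for Bglap2. Their counts are therefore partly uncertain between the copies.

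Runx2 lies on chromosome 17 from 44495987 to 44814797 on the minus strand. It was the only gene of the 10 that reached 1 FPKM in all 6 libraries, and its distal promoter is shown for that reason. RUNX proteins bind DNA at motifs such as AACCACA. The 250 bases before the start, taken from RefSeq promoters on GRCm38.p6 (chr17:44814628-44814877, minus strand), are given with the motif in capitals. The RefSeq start lies inside the gene as GENCODE M21 draws it, so the bases up to 44814797, the motif among them, fall within the annotated gene.
Runx2 promoter: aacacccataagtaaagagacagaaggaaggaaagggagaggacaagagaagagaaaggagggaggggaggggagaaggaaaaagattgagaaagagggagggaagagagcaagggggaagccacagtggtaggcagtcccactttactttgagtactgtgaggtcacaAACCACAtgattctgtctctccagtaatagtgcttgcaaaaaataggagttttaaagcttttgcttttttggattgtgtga
Runx2 after the start: aacAACCACAgAACCACAagt
The window of 250 bases before and 50 after the start held 3 matches, beginning at positions -81, 23 and 31 from the start, none of which overlap. Of 32851 promoter windows of this length, 5.27% held AACCACA or its reverse complement TGTGGTT, and 3 windows held 3 or more matches. RefSeq promoters were matched for 6 of the 10 genes, in 8 windows. The 7 windows of Bglap, Ifitm5, Pth1r, Sost and Phex did not hold these letters. Sp7, Bglap2, Col1a1 and Dlx3 were the other genes. A match is a description of the sequence, and binding was not measured.

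Detection separated Runx2 from the other 9 genes. Runx2 had 755 to 861 reads in every sulfasalazine library and 755 to 1155 in every control library. The other 9 genes together had 47, 54 and 59 reads in sulfasalazine replicates 1, 2 and 3, and 32, 49 and 30 reads in control replicates 1, 2 and 3. No single one of the 9 exceeded 27 reads in a library. At least 1 read was found in all 6 libraries for 6 of the 10 genes (Runx2, Bglap, Bglap2, Col1a1, Pth1r and Ifitm5). Dlx3 had reads in 5 libraries, Phex in 3, Sost in 2 and Sp7 in 1. A level of 1 FPKM was reached by Runx2 in all libraries and by Bglap2 in 1.

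**Figure D1:**
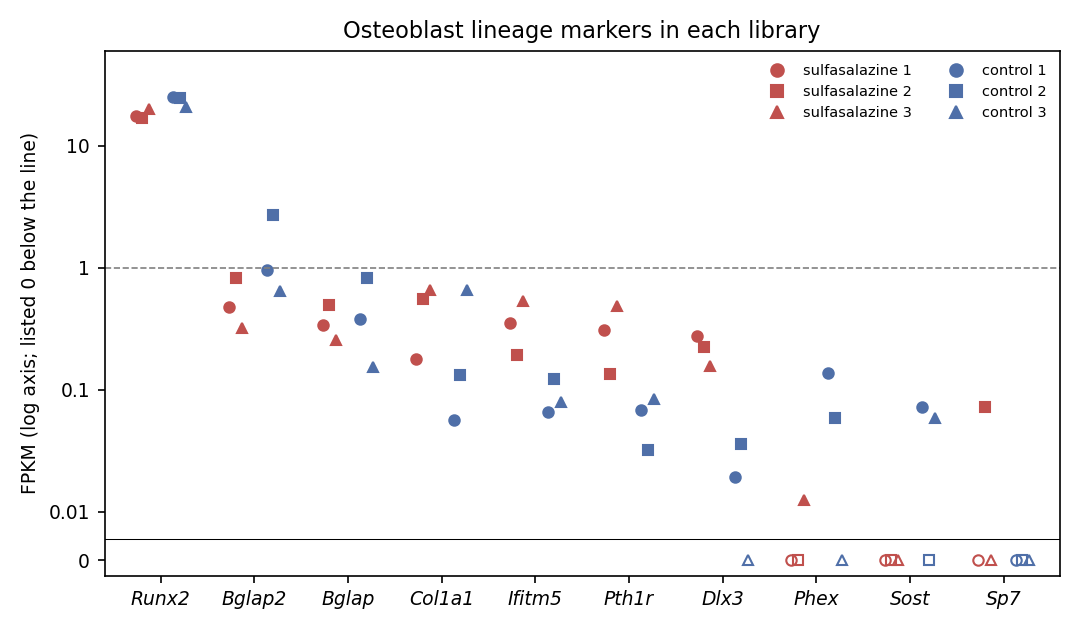
FPKM of the 10 genes (log axis) in the 3 sulfasalazine libraries (red, left) and the 3 control libraries (blue, right), with open symbols below the solid line for libraries listed at 0 and a dashed line at 1 FPKM. Runx2 lies above 10 FPKM in all 6 libraries, and the only other point above 1 FPKM is Bglap2 in control replicate 2, at 2.69 FPKM.

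Ranked by mean FPKM over the 6 libraries, Runx2 stood 5347th of the 14003 genes of the table. Bglap2 came next among the markers, at rank 10280, and the ranks then ran through Bglap (10838), Col1a1 (10906), Ifitm5 (11233), Pth1r (11365), Dlx3 (11668), Phex (12559), Sost (12905) and Sp7 (13399). Levels of Bglap, Col1a1, Ifitm5 and Pth1r overlapped between genes in single libraries, so their order within that range did not exceed the spread of the samples. The levels also depend on the gene length the authors used. Those lengths were whole numbers for 99.986% of genes (within 0.01 bases) and lay within 1 base of the mean length of all GENCODE M21 transcripts for 97.0% to 97.2% of genes. For Col1a1 the length behind the FPKM was 1781 bases, while its longest annotated transcript has 5930. At the longest transcript its mean would be 0.138 FPKM with sulfasalazine and 0.0840 FPKM in controls. Runx2 had 2202 bases behind its FPKM against a longest transcript of 6463, which would give 6.16 FPKM with sulfasalazine and 7.996 FPKM in controls. The length cancels when a gene is compared between groups.

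**Figure D2:**
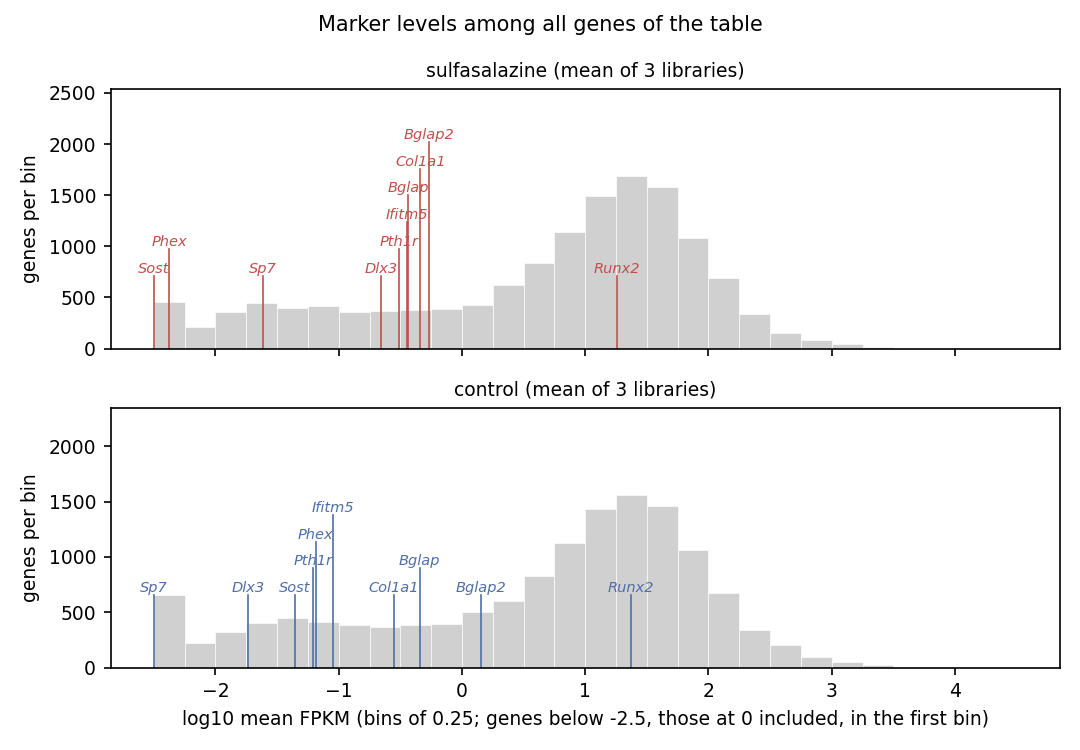
Histograms of log10 mean FPKM over all 14003 genes in sulfasalazine libraries (top) and control libraries (bottom), in bins of 0.25, with vertical lines at the 10 markers. Runx2 sits in the main peak of expressed genes in both groups (59.6% of genes were lower with sulfasalazine and 66.2% in controls), and the other markers lie in the low shoulder to its left.

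Among the transcription factors, Runx2 was lower with sulfasalazine, by a small amount. It stood at 17.6, 16.8 and 19.8 FPKM in sulfasalazine replicates 1, 2 and 3, and at 24.9, 24.6 and 20.9 FPKM in control replicates 1, 2 and 3. All 3 sulfasalazine libraries lay below all 3 controls, with the closest values in replicate 3 of each group. The means were 18.1 ± 1.57 FPKM with sulfasalazine and 23.5 ± 2.2002 FPKM in controls (SD, n = 3 each). On the log2(FPKM + 1) scale the fold change was -0.36 (SE 0.13, limma adjusted p = 0.044 over the 10338 genes that reached 1 FPKM in 3 or more libraries). Of those genes 66.5% passed that threshold, 37.2% as higher and 29.3% as lower (68.0%, 34.5% and 33.5% by voom), so a call alone did not set Runx2 apart. The call was lost without sulfasalazine replicate 1 or 2 (limma adjusted p = 0.14 and 0.16) and without control replicate 1 or 2 (0.11 and 0.12). Without replicate 3 of both groups, a setting chosen after seeing the data, the fold change was -0.50 (adjusted p = 0.0029). Leaving out the closest values widens the gap by itself, so that fit adds no support. Median-of-ratios scaling, which moved the median log2 fold change of all genes tested to -0.03, against 0.08 as deposited, gave -0.48 for Runx2 (adjusted p = 0.0099). Of the Runx2 exonic bases 5.87% lie in its antisense gene Runx2os1. Whether the counting used strand is not given here.

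Dlx3, on chromosome 11 from 95120119 to 95125296, was higher with sulfasalazine from a near-zero base. It had 16, 12 and 8 reads in sulfasalazine replicates 1, 2 and 3 (0.277, 0.225 and 0.156 FPKM), against 1, 2 and 0 reads in control replicates 1, 2 and 3 (0.0192, 0.0360 and 0 FPKM). Every sulfasalazine library was above every control, and the control counts were at or under 3 reads. In a limma fit of all 14003 genes its log2(FPKM + 1) fold change was 0.26 (SE 0.04, adjusted p = 0.0026), on a scale that compresses changes this far below 1 FPKM. Limma voom on the recovered reads put the change at 3.05 on the log2 scale (SE 0.62, adjusted p = 0.0025). Pooled over each group, Dlx3 had 36 reads with sulfasalazine and 3 in controls, a depth-adjusted ratio of 11.1 with an exact 95% interval of 3.51 to 56.4 that covers counting error only. The call held under all 13 alternative settings, with adjusted p between 0.0014 and 0.016. The level stayed low, and only 19.9% of the genes in the table had a lower mean in sulfasalazine libraries.

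Sp7, on chromosome 15 from 102356606 to 102367182, was close to undetected. It had 0, 3 and 0 reads in sulfasalazine replicates 1, 2 and 3, and 0 reads in each of the 3 controls. A count of 0 allows up to 3 reads, which is 0.0668 to 0.0750 FPKM in sulfasalazine replicates 1 and 3 and 0.0694 to 0.0903 FPKM in the controls. The single sulfasalazine library with reads, at 0.0724 FPKM, lay inside that range, so a difference was not detectable at this depth (limma adjusted p = 0.46).

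The matrix genes gave few reads in either group. Col1a1, encoding the α1 chain of type I collagen (chromosome 11, 94936224 to 94953042), had 7, 20 and 23 reads in sulfasalazine replicates 1, 2 and 3, which is 0.178, 0.550 and 0.655 FPKM. The control replicates 1, 2 and 3 had 2, 5 and 19 reads, which is 0.0561, 0.132 and 0.651 FPKM. The groups overlapped because control replicate 3 was nearly as high as the highest sulfasalazine library. The fold change was 0.20 on the log2(FPKM + 1) scale (SE 0.20, limma adjusted p = 0.42), and none of 13 alternatives gave a call. Leaving out 1 library gave values between 0.08, without control replicate 1 (adjusted p = 0.79), and 0.40, without control replicate 3 (0.068). The pooled ratio of reads was 1.78 with an exact 95% counting interval of 1.09 to 2.98, which leaves out the spread between replicates.

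Bglap had 3, 4 and 2 reads in sulfasalazine replicates 1, 2 and 3, and 3, 7 and 1 reads in control replicates 1, 2 and 3. In FPKM these were 0.342, 0.495 and 0.256 with sulfasalazine, and 0.378, 0.829 and 0.154 in controls. The ranges overlapped wholly (log2 fold change -0.07, SE 0.16, limma adjusted p = 0.75). Bglap2 had 5, 8 and 3 reads in sulfasalazine replicates 1, 2 and 3, and 9, 27 and 5 reads in control replicates 1, 2 and 3. Its levels were 0.480, 0.832 and 0.323 FPKM with sulfasalazine, against 0.955, 2.69 and 0.648 FPKM in controls. Control replicate 2 was the highest library for both osteocalcin genes, and sulfasalazine replicate 2 was the highest of its group for both. The Bglap2 fold change was -0.58 (SE 0.30, limma adjusted p = 0.15). Without control replicate 2 it was -0.23 (adjusted p = 0.30), and voom on the reads gave -1.29 (adjusted p = 0.11). The pooled ratio of Bglap2 reads was 0.362 with an exact 95% counting interval of 0.189 to 0.659, which leaves out the spread between replicates.

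Pth1r and Ifitm5, which encode proteins of the osteoblast membrane, were higher with sulfasalazine in the fit of all genes, with less support than Dlx3. Pth1r (chromosome 9, 110722085 to 110747145) had 10, 4 and 14 reads in sulfasalazine replicates 1, 2 and 3, and 2, 1 and 2 reads in control replicates 1, 2 and 3. Its levels were 0.310, 0.134 and 0.487 FPKM with sulfasalazine, against 0.0685, 0.0322 and 0.0837 FPKM in controls. The groups did not overlap. The fold change was 0.30 on the log2(FPKM + 1) scale (SE 0.09, limma adjusted p = 0.034), and voom on the reads gave 1.87 (SE 0.63, adjusted p = 0.030). The pooled ratio of Pth1r reads was 5.19 (exact 95% counting interval 1.98 to 17.2). The call held in 1 of the 6 fits that left out 1 library, the one without sulfasalazine replicate 2 (adjusted p = 0.0068), and was lost in the other 5 (0.063 to 0.11). It was also lost without an intensity trend (0.068) and without replicate 3 of both groups (0.090). Of the Pth1r exonic bases 3.25% lie in Myl3 on the opposite strand.

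Ifitm5 (chromosome 7, 140948958 to 140950291) had 6, 3 and 8 reads in sulfasalazine replicates 1, 2 and 3, which is 0.354, 0.192 and 0.530 FPKM. Control replicates 1, 2 and 3 had 1, 2 and 1 reads, which is 0.0653, 0.123 and 0.0798 FPKM. Here too every sulfasalazine library lay above every control. The fold change was 0.31 (SE 0.09, limma adjusted p = 0.022), and voom on the reads did not pass (1.49, SE 0.58, adjusted p = 0.052). Its pooled ratio of reads was 3.94 (exact 95% counting interval 1.28 to 16.1). Leaving out sulfasalazine replicate 1 or any 1 control library ended the call (adjusted p = 0.055 to 0.076), as did leaving out replicate 3 of both groups (0.078). A further gene entry on the same strand, Gm45717, holds 29.7% of the Ifitm5 exonic bases, so its reads cannot be assigned with certainty.

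The osteocyte genes were at the edge of detection. Phex (X chromosome, 157162075 to 157415312) had 0, 0 and 1 reads in sulfasalazine replicates 1, 2 and 3, and 11, 5 and 0 reads in control replicates 1, 2 and 3. Its levels were 0, 0 and 0.0126 FPKM with sulfasalazine, against 0.137, 0.0584 and 0 FPKM in controls. The groups overlapped through control replicate 3, the shallowest library. The fold change was -0.08 (SE 0.05, limma adjusted p = 0.19), and 1 of 13 alternatives gave a call. That was the fit without control replicate 3, at -0.13 (adjusted p = 0.037), while without control replicate 1 the value was -0.03 (0.45). The pooled ratio of reads was 0.0579 with an exact 95% counting interval of 0.00138 to 0.373.

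Sost (chromosome 11, 101962458 to 101967015) had 0 reads in each of the 3 sulfasalazine libraries, and 3, 0 and 2 reads in control replicates 1, 2 and 3. The counts of 0 with sulfasalazine allow up to 0.0656, 0.0711 and 0.0736 FPKM, and the controls with reads stood at 0.0725 and 0.0591 FPKM. No fold is given, since neither group exceeded 3 reads in a library. The fit of all genes did not pass (limma adjusted p = 0.18), and 1 of 13 alternatives did, the fit without control replicate 2 (0.035).

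**Figure D3:**
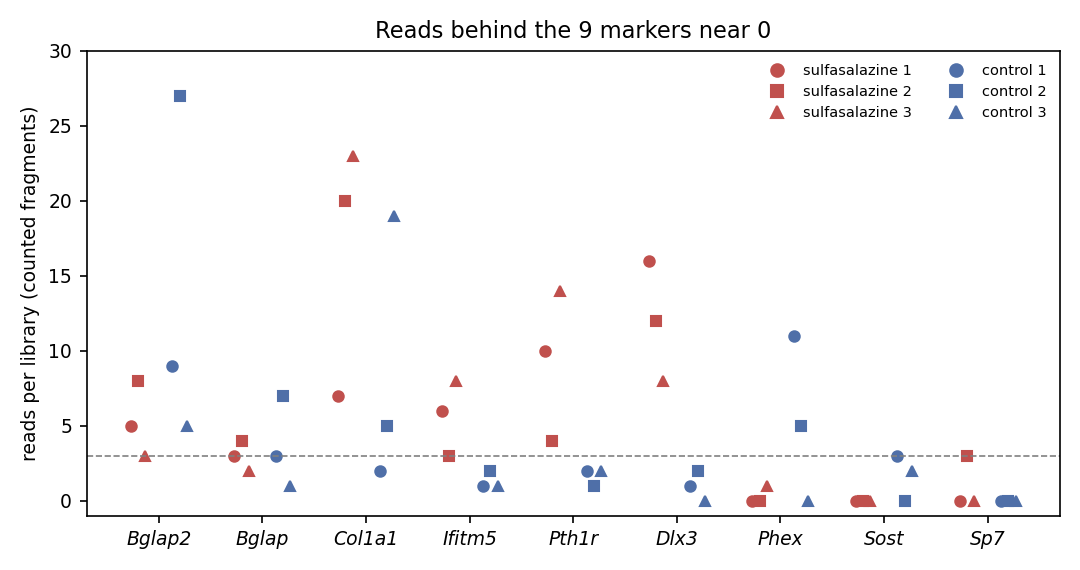
Reads per library of the 9 markers near 0, in sulfasalazine libraries (red, left) and control libraries (blue, right), with a dashed line at 3 reads. Dlx3, Pth1r and Ifitm5 have their 3 sulfasalazine points above or at 3 reads and their 3 control points at 0 to 2 reads.

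Of the 9 markers below the filter, 3 were called higher (Dlx3, Pth1r and Ifitm5) and 0 lower in the limma fit of all genes. No marker below the filter reached an unadjusted p under 0.05 as lower in that fit, and voom called 2 of the 9, Dlx3 and Pth1r, both higher. In the limma fit 52.9% of all 14003 genes were called, 30.5% as higher and 22.4% as lower. Voom called 55.5% of them, 28.8% as higher and 26.7% as lower. Of the 3665 genes below the filter limma called 22.5%, 15.0% as higher and 7.53% as lower, and voom called 25.2%, 15.0% as higher and 10.2% as lower. The groups did not overlap for 4 of the 10 markers, against 60.6% of all genes and 30.1% of the genes below the filter. In the authors' deposited table, where every selected gene has a log2 fold change of at least 1.0003 in size, Dlx3 (3.24, adjusted p = 4.6e-05) and Pth1r (2.19, adjusted p = 0.014) are listed as higher and Phex (-3.69, adjusted p = 0.018) as lower. The authors' deposited table selects 34.9% of all genes, 18.8% as higher and 16.1% as lower. Runx2 has a log2 fold change of -0.48 in the authors' deposited table (adjusted p = 0.022) and is not selected there.

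**Figure D4:**
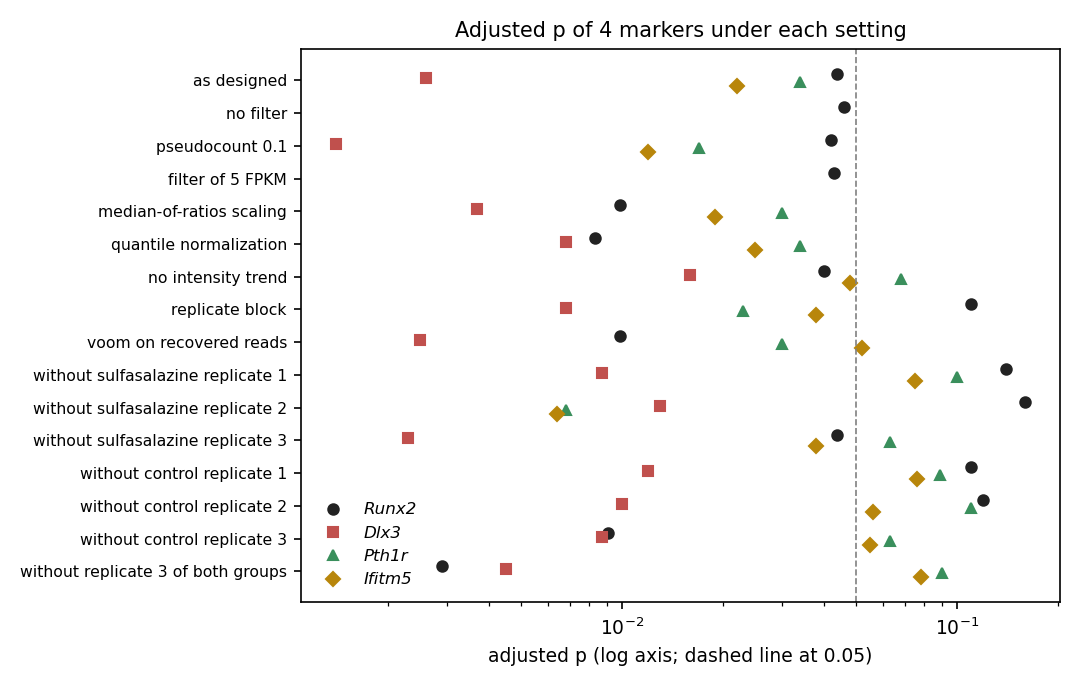
Adjusted p (log axis) of Runx2, Dlx3, Pth1r and Ifitm5 in the fit as designed and under each alternative setting, with a dashed line at 0.05. Dlx3 lies left of the line under every setting run for it, and the other 3 markers cross it when single libraries are left out.

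Genes that work with the markers were read from 6 lists. Of 76 tested genes in these lists, 28 were called higher and 26 lower with sulfasalazine, which is 71.1% called against 66.5% of all genes tested. The median log2 fold change was 0.07, against 0.08 over all genes tested.

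Transcription factors and partners of RUNX2 had 4 higher, 10 lower and 8 without a call among 22 tested, with a median log2 fold change of -0.42. That is 63.6% called, beside 66.5% of all genes tested (37.2% higher and 29.3% lower). Cbfb, encoding the DNA-binding partner of RUNX proteins, stood at 35.8 ± 6.21 FPKM with sulfasalazine and 35.6 ± 4.19 FPKM in controls (limma adjusted p = 0.99, a gene named after its value was seen). Hivep3, encoding Schnurri-3, an adaptor known to promote RUNX2 degradation, fell to 0.806 ± 0.378 FPKM with sulfasalazine, against 7.25 ± 1.62 FPKM in controls (log2 fold change -2.19). By voom the Hivep3 change was -3.34. Atf4, a factor needed for late osteoblast genes, fell to 392 ± 131 FPKM, against 1394 ± 93.3 FPKM in controls. Fosl2, an AP-1 subunit of bone cells, averaged 47.2 ± 1.46 FPKM with sulfasalazine and 109 ± 12.4 FPKM in controls (log2 fold change -1.18), and the corepressor gene Tle3 averaged 112 ± 6.72 and 172 ± 8.04 FPKM in the same groups. Vdr, the vitamin D receptor gene, rose to 18.0 ± 0.455 FPKM, against 3.63 ± 0.425 FPKM in controls (log2 fold change 2.04). The other RUNX genes were also named after their values were seen. Runx1 averaged 39.9 ± 4.74 FPKM with sulfasalazine and 78.4 ± 15.8 FPKM in controls (log2 fold change -0.94, limma adjusted p = 0.0014). Runx3 averaged 22.4 ± 1.65 FPKM with sulfasalazine and 29.8 ± 5.62 FPKM in controls, and did not pass (adjusted p = 0.056).

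Of 25 genes listed for bone matrix and mineralisation, 15 had a row. Among these 15, 8 had a mean below 1 FPKM, like Col1a1, and 6 had a mean of at least 10 FPKM. Over all 14003 genes 3737 had a mean below 1 FPKM. Of the 7 tested, 2 rose, 4 fell and 1 did not pass (85.7% called, beside 66.5% of all genes tested). Phospho1, counted among those that rose (limma adjusted p = 0.036), lost its call in 8 of 13 alternatives. Spp1, encoding osteopontin, was the most abundant, at 947 ± 104 FPKM with sulfasalazine and 1868 ± 309 FPKM in controls (log2 fold change -0.97), and Gm42793 on the same strand covers 18.8% of the Spp1 exonic bases. Col5a1, encoding a minor fibrillar collagen, fell to 62.8 ± 14.9 FPKM, against 153 ± 51.7 FPKM in controls. Slc20a1, a phosphate transporter gene, fell to 16.9 ± 4.91 FPKM, against 59.8 ± 9.32 FPKM, and Ank, encoding a pyrophosphate transporter that restrains mineralisation, rose to 207 ± 18.2 FPKM, against 46.1 ± 2.33 FPKM in controls (log2 fold change 2.14).

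Enzymes and chaperones that process collagen were higher more often than lower: 12 of 18 tested rose, 3 fell and 3 did not pass, beside 37.2% higher and 29.3% lower over all genes tested. The median log2 fold change was 0.84. Plod1, a lysyl hydroxylase gene, rose to 108 ± 20.8 FPKM with sulfasalazine, against 28.6 ± 7.02 FPKM in controls. Crtap and P3h1, subunits of the prolyl 3-hydroxylation complex, rose by 1.82 and 1.78 on the log2 scale. Adamts14, a procollagen N-proteinase gene, fell to 3.33 ± 0.239 FPKM, against 18.2 ± 7.17 FPKM in controls. P4hb, the most abundant gene of the list, stood at 758 ± 21.9 FPKM with sulfasalazine and 529 ± 109 FPKM in controls (log2 fold change 0.54, limma adjusted p = 0.016). P4hb no longer passed with median-of-ratios scaling (0.067) or without sulfasalazine replicate 2 (0.059) or control replicate 2 (0.057). Ppib, encoding a prolyl isomerase of the endoplasmic reticulum, averaged 135 ± 4.46 FPKM with sulfasalazine and 75.4 ± 17.6 FPKM in controls (log2 fold change 0.86), with 24.96% of its exonic bases in Snx22 on the opposite strand. Of the 25 genes, 7 had a mean below 1 FPKM, among them the collagen chaperone gene Serpinh1 (0.0440 ± 0.0381 FPKM with sulfasalazine and 0.0135 ± 0.0233 FPKM in controls, named after its value was seen).

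Of genes linked to parathyroid hormone receptor signalling, 8 rose, 6 fell and 8 did not pass among 22 tested, with a median of 0.07. Here too 63.6% were called, beside 66.5% of all genes tested. Arrb1 and Arrb2, encoding arrestins that bind the activated receptor, rose by 2.44 and 2.37 on the log2(FPKM + 1) scale. Voom put these changes at 3.72 and 2.42. Arrb1 reached 7.39 ± 1.99 FPKM with sulfasalazine, against 0.518 ± 0.133 FPKM in controls. Arrb2 reached 52.2 ± 4.90 FPKM with sulfasalazine, against 9.75 ± 4.31 FPKM in controls. Pde4d, a cAMP phosphodiesterase gene, rose to 8.28 ± 1.41 FPKM, against 0.711 ± 0.0609 FPKM in controls. Arrb1 and Pde4d stayed under 1 FPKM in every control library, so they passed the filter through the sulfasalazine libraries alone. They had no fit once a sulfasalazine library was left out. Sik1, encoding a kinase inhibited by cAMP signalling, fell to 25.9 ± 7.34 FPKM, against 77.0 ± 14.4 FPKM, and Prkar1a, a regulatory subunit gene of protein kinase A, fell by 0.78 on the log2 scale. Gnas, encoding the stimulatory G protein, averaged 638 ± 21.9 FPKM with sulfasalazine and 781 ± 171 FPKM in controls (limma adjusted p = 0.17), with 22.0% of its exonic bases in a gene on the opposite strand.

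Of the osteocyte list 4 of the 7 genes in the table were tested, of which 3 fell and 0 rose (75.0% called, beside 66.5% of all genes tested). Those 4 are also made by many other cells. Csf1, encoding a cytokine that drives osteoclast formation, fell to 33.6 ± 5.05 FPKM with sulfasalazine, against 708 ± 105 FPKM in controls (log2 fold change -4.35). Capg, an actin-capping protein gene, averaged 291 ± 40.4 FPKM with sulfasalazine and 388 ± 6.18 FPKM in controls, a call lost under quantile normalization (limma adjusted p = 0.091). Cd44, a hyaluronan receptor gene, averaged 170.2 ± 29.3 FPKM with sulfasalazine and 249.7 ± 40.2 FPKM in controls, a call lost under quantile normalization (0.088) and without replicate 1 or 2 of either group (0.059 to 0.076). Of the receptors through which sclerostin acts, Lrp5 rose to 15.8 ± 5.95 FPKM, against 2.48 ± 0.759 FPKM in controls (log2 fold change 2.24). Lrp4, of the same list, was near 0 and not tested, and was named after its value was seen. Its mean was 0.0537 ± 0.0272 FPKM with sulfasalazine and 0.0630 ± 0.0570 FPKM in controls. Lrp6 stood at 47.7 ± 12.0 FPKM with sulfasalazine and 36.6 ± 12.2 FPKM in controls (limma adjusted p = 0.21), and Kremen1, a receptor of Wnt antagonists, rose by 1.28 on the log2 scale.

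**Figure D5:**
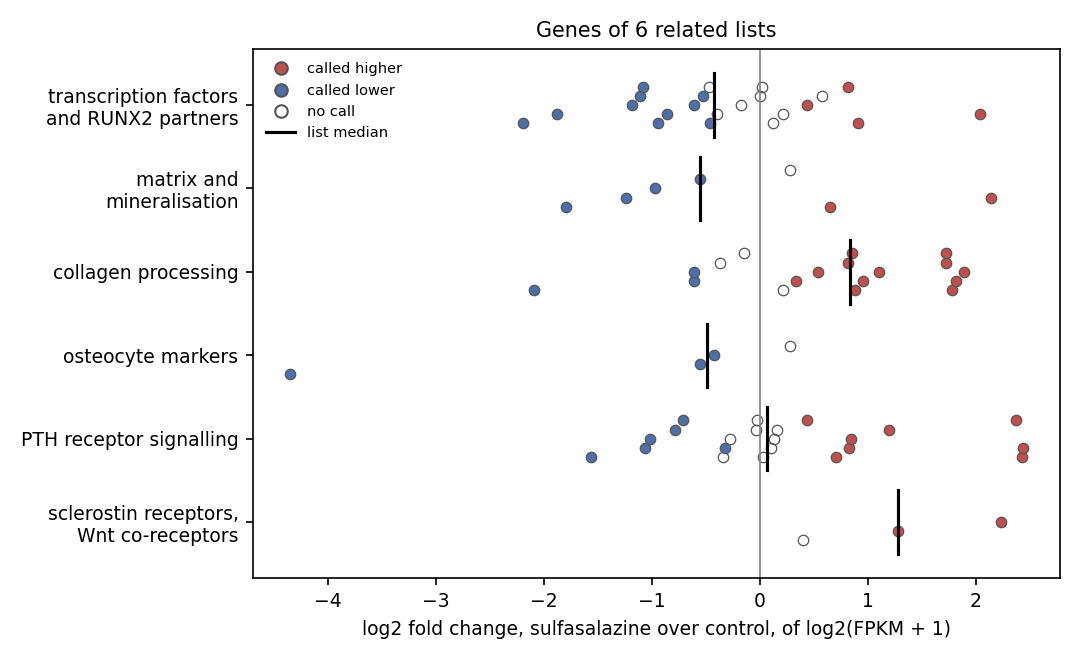
Log2 fold change (sulfasalazine over control) of every tested gene in 6 lists of related genes, with red points called higher, blue points called lower, open points without a call and a black bar at the list median. Collagen processing genes lie mostly right of 0 (12 of 18 called higher), and Csf1 is the point farthest left, at -4.35.

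The label preosteoblast was set against defining markers, and most of the osteoblast markers did not bear it out. The identity of the cells was not tested beyond these markers. Of the osteoblast markers, Runx2 averaged 18.1 FPKM with sulfasalazine and 23.5 FPKM in controls, and Spp1 averaged 947 and 1868 FPKM in the same groups. The other 9 of the 10 genes, Col1a1 and Sp7 among them, averaged at most 0.545 FPKM with sulfasalazine and at most 1.43 FPKM in controls. No values are given here for the further osteoblast markers Alpl, Ibsp and Col1a2. Defining markers of other cell types were near 0 for skeletal muscle (5 of 5 genes in the table below 1 FPKM as a mean over the 6 libraries), endothelium (3 of 3), and macrophages and osteoclasts (4 of 5 by that mean, with Cd68 above it). Cd68, a lysosomal gene of macrophages, averaged 22.0 ± 5.70 FPKM with sulfasalazine and 42.6 ± 12.5 FPKM in controls, and Acp5 averaged 1.13 ± 0.322 and 0.223 ± 0.179 FPKM in the same groups. Pecam1 and Vwf of endothelium and Des and Acta1 of muscle averaged at most 0.347 FPKM in either group. Among fibroblast and pericyte markers 7 of 10 were below 1 FPKM, and their summed level was 996 to 1039 FPKM with sulfasalazine and 460.3 to 659 FPKM in controls, mostly Vim. Ly6a averaged 129.7 ± 15.2 FPKM with sulfasalazine and 163.6 ± 29.0 FPKM in controls, without a call (limma adjusted p = 0.094). Among chondrocyte markers 5 of 7 were below 1 FPKM, and Sox9 averaged 34.8 ± 7.08 FPKM with sulfasalazine and 158 ± 6.74 FPKM in controls, while Col11a2 averaged 3.49 ± 0.722 and 3.86 ± 1.48 FPKM in the same groups. Adipocyte markers had 2 of 4 below 1 FPKM, with Pparg at 9.89 ± 0.292 FPKM with sulfasalazine and 8.54 ± 0.862 FPKM in controls, and Cebpa at 1.04 ± 0.352 and 2.47 ± 0.883 FPKM in the same groups. Epithelial markers had 6 of 11 below 1 FPKM and a summed level of 1972 to 2208 FPKM with sulfasalazine and 1536 to 1726 FPKM in controls, nearly all of it keratins. Of 5 epithelial genes tested, 2 were called higher and 2 lower (80.0% called, beside 66.5% of all genes tested). Cdh1, encoding E-cadherin, averaged 7.55 ± 2.10 FPKM with sulfasalazine and 6.42 ± 1.11 FPKM in controls, without a call (limma adjusted p = 0.49). Krt8 averaged 902 ± 58.1 FPKM with sulfasalazine and 287 ± 33.4 FPKM in controls, and Krt18 averaged 913 ± 61.4 and 708 ± 61.1 FPKM in the same groups. Krt19 fell to 153.9 ± 42.9 FPKM with sulfasalazine, against 349.5 ± 43.2 FPKM in controls. Krt7 fell to 107.9 ± 18.8 FPKM, against 260.1 ± 16.3 FPKM in controls. Cdh1, Krt19 and Krt7 were named after their values were seen. The Krt18 difference (limma adjusted p = 0.031) was lost in 8 of 14 alternatives, and 26.9% of the 50-base words of Krt8 transcripts occur in other genes. The part of these other markers in the changes of the osteoblast genes was not tested.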

How the data were processed

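The deposited table gives, for 14003 genes, FPKM per library made by the authors, an adjusted signal per library made by the authors, and the authors' log2 fold changes, p-values and adjusted p-values. A further deposited table of 4891 selected genes was not used. Per the submitters' processing notes, the tools were fastp 0.23.0, HISAT2 2.2.1, HTSeq 0.13.5 and edgeR, and the build mm39, with roles and settings not given here. The coordinates of 13861 of 13994 matched genes equal those of GENCODE M21 (GRCm38), and GRCm38 is the build printed.

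FPKM values were tested on log2(FPKM + 1), which understates changes of low genes, with limma 3.58.1 (R 4.3.3; intensity trend, Benjamini-Hochberg, threshold 0.05). Genes needed at least 1 FPKM in 3 of 6 libraries (10338 genes). Markers below this came from a limma fit of all 14003 genes. The FPKM were whole multiples of a step per gene and library for 100.0% of values (tolerance 1e-05), which gave whole reads for voom and for exact 95% intervals. For 654 genes the step was settled with the authors' signal. Intervals and floors of 3 reads cover counting error only. The fits were tested on simulated data, with changes placed only in genes with more reads than the markers below the filter. Those changes were also larger than that of Runx2. The simulation therefore does not cover the markers. Alternatives were the pseudocount, filter, scaling, trend, replicate block, voom and each library left out.

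The members and lists were chosen with earlier results of these data known. Every member is named. From each related list, up to 4 called genes with the largest change and a group mean of at least 5 FPKM are named, with the 2 of highest mean; other cell type lists give the 2 of highest mean. The RefSeq tables used here hold promoters of 6 members. Python 3.11.15, numpy 2.4.6, pandas 2.3.3 and scipy 1.17.1 were used.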

Additional observations from a re-analysis of the deposited data

How the results depend on the processing

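Runx2 was lower under all 15 alternatives (-0.50 to -0.31 on the log2 scale) and called under 10. Leaving out 1 library gave -0.44 to -0.31. With a replicate block it stood at -0.36 (limma adjusted p = 0.11). Same-numbered samples did not deviate together (correlations 0.04, -0.19 and -0.17), so the numbers do not pair the samples. The block gave 3649 genes higher and 2771 lower, against 3846 and 3032 without it. Among the 9 markers near 0, it called 1 lower (Bglap2, adjusted p = 0.036). Leaving out 1 library gave 1 to 3 of these markers higher and 0 to 1 lower, and leaving out replicate 3 of both groups, chosen after seeing the data, gave 1 higher. Bglap ranged between -0.22 (without control replicate 3) and 0.11 (without control replicate 2, a turn in direction). Detection in all 6 libraries held for 6 markers at 1 read, 3 at 0.1 FPKM and 1 at 1 FPKM. Over all genes, leaving out 1 library gave 3042 to 4205 higher and 2437 to 3417 lower, and over the 6 related lists 23 to 31 higher and 22 to 27 lower. Sp7 without sulfasalazine replicate 2 has 0 reads in every library and gave no value. With 30 to 59 reads a library on 9 markers, the low counts limit every statement on them. The cause of the lost calls was not tested.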
